A study of Mus musculus with 8 samples.

Results

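Choroid plexus marker genes were followed in the periventricular wall of adult mice that lacked *Lrig1* (KO) and of wild-type (WT) controls. The set holds 10 genes, *Ttr*, *Kl*, *Folr1*, *Clic6*, *Otx2*, *Kcne2*, *Sostdc1*, *Slc4a5*, *Kcnj13* and *Aqp1*, chosen by name as markers of the plexus epithelium from the 54307 genes of the deposited count table, and all 10 were found. The study asked which transcripts differ in the ventricular-subventricular zone (V-SVZ) when LRIG1, a transmembrane inhibitor of growth factor signalling, is absent. RNA came from the dissected area around the lateral ventricle of 8 mice aged 8 weeks of the 129-Elite strain, with 1 hemisphere and 1 polyA library for each mouse. The 4 KO mice (2 female, 2 male) were homozygous for CreERT2 inserted in exon 1 of *Lrig1*, which makes a constitutive loss of the gene in every cell, and the 4 controls (3 female, 1 male) were WT littermates without CreERT2. Mice are called WT1 to WT4 and KO1 to KO4 after the replicate numbers of the labels, with WT2, KO1 and KO3 male.

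The choroid plexus is a frond of vascular stroma that hangs into each ventricle under a sheet of epithelium. That epithelium secretes cerebrospinal fluid through ion transporters, aquaporin water channels and bicarbonate carriers, carries folate and thyroid hormone across the blood-cerebrospinal fluid barrier, and signals to the stem cells of the V-SVZ through the fluid. It lies next to the tissue dissected here and is not part of the wall itself. In bulk tissue, fewer cells of a type and less RNA per cell cannot be told apart.

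Levels are given as CPM, which are counts scaled to library size with TMM factors, when a gene is compared between mice, and as TPM, which also corrects for transcript length, when genes are compared with each other. Depth ran from 47887437 to 74482334 estimated counts per library. *Lrig1* was at 13.5 to 45.6 CPM in the WT mice and at 1.17 to 4.15 CPM in the KO mice with no overlap, so no mouse went against its genotype label. Its log2 fold change was -3.80 (SE 0.52), but its adjusted p was 0.286 by the quasi-likelihood test of edgeR with Benjamini-Hochberg adjustment over the 17669 genes tested. Its adjusted p was 0.0979 in edgeR without the count filter, 0.000176 in edgeR with sex as a covariate and 4.46e-08 in DESeq2 without covariates, so *Lrig1* was called in those fits. The exact permutation test over the mice gave p = 0.0286, the smallest that 4 against 4 allows.

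The plexus markers were at low to trace levels. Summed TPM over the 10 genes ran from 15.1 to 49.8 in the 8 mice, where the median gene tested had a mean of 7.82 TPM. *Ttr* and *Clic6* exceeded 1 TPM in every mouse, and 4 of the 10 genes stayed below 1 TPM in every mouse. *Ttr*, the transthyretin carrier that is among the most abundant transcripts of plexus epithelium, averaged 13.8 TPM and ranked 6783 of all genes. The share of *Ttr* in the summed TPM of the 10 genes varied between 11.5% and 73.0%, and that of *Clic6* between 14.6% and 56.0%. In 5 mice *Ttr* had more TPM than *Clic6* and in the other 3 it had less, and the ratio between both ran from 0.206 to 5.0. Of 38 further genes used as plexus markers, 34 passed the count filter. In all 17669 genes passed it, so passing does not show that plexus tissue was present. The lowest, *Lmx1a*, *Wfdc2* and *Cltrn*, had no more than 3 counts in any mouse. Others had counts in every mouse, such as *Tmem72* (62 to 206), *Ecrg4* (47 to 116) and *F5* (45 to 94). These averaged only 0.165, 2.8 and 0.231 TPM, and all 6 were named after their values were seen. The 10 genes thus did not stand in a fixed ratio to each other.

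**Figure D1:**
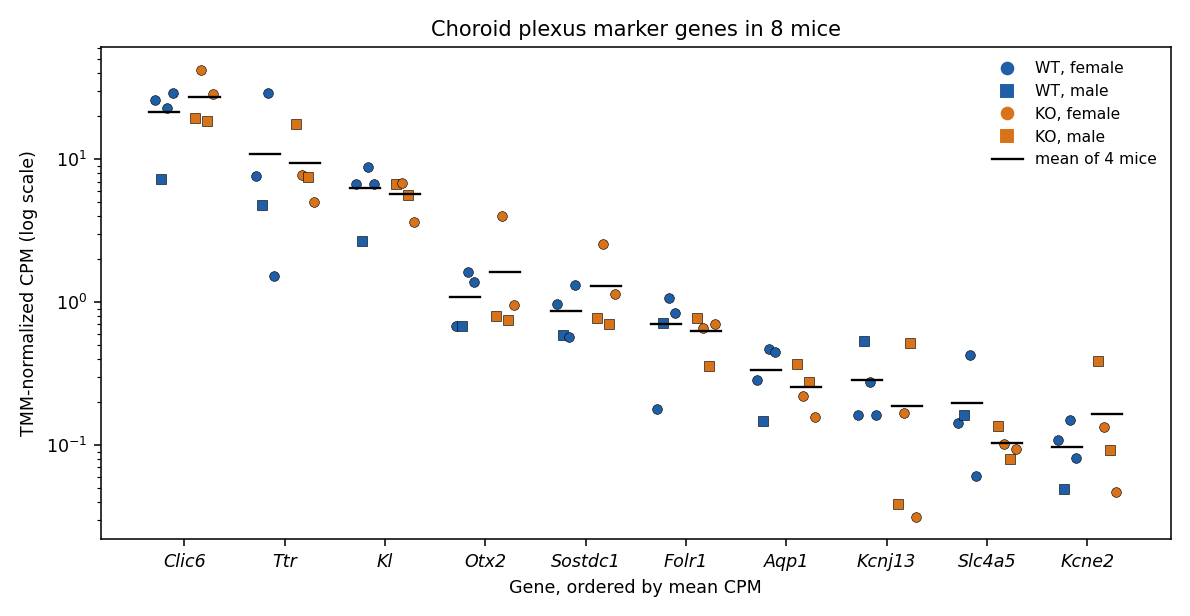
TMM-normalized CPM of the 10 choroid plexus marker genes (log axis) in each of the 8 mice, with WT in blue, KO in orange, females as circles, males as squares and the mean of 4 mice as a bar. WT and KO overlap for every gene, and the WT mice span 1.53 to 29.3 CPM for *Ttr*.

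*Ttr* varied more between WT mice than any other member (SD of log2 CPM 1.76, where the other 9 had 0.59 to 1.15). It was at 7.68, 4.80, 29.3 and 1.53 CPM in WT1 to WT4 and at 17.6, 7.72, 7.50 and 5.04 CPM in KO1 to KO4. WT3 held 19.2 times the level of WT4, both of them female WT mice by label, while the KO mice differed by 3.48-fold. The counts behind these values ran from 75 to 1377, so counting error was small (an SD of 0.06 on the log2 scale) against the spread within genotypes of 1.35. WT mice averaged 10.8 ± 12.6 CPM (SD, n = 4) and KO mice 9.46 ± 5.54 CPM (SD, n = 4). The log2 fold change was -0.20 (SE 0.78, edgeR adjusted p = 1.0), and it became 1.02 (adjusted p = 0.999) without WT3 and -0.68 without KO1.

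*Kl* encodes klotho, a transmembrane protein shed into the cerebrospinal fluid by the plexus. Its level was 6.76, 2.67, 8.85 and 6.75 CPM in WT1 to WT4 and 6.74, 6.89, 5.61 and 3.67 CPM in KO1 to KO4. WT2 and KO4 were low and the other 6 mice lay between 5.61 and 8.85 CPM, and the log2 fold change was -0.13 (SE 0.34). *Folr1*, the folate receptor that carries folate across the epithelium, had 10 counts in WT1 (95% exact Poisson interval 4.80 to 18.4) and 27 to 50 counts in the other 7 mice. That is 0.180 CPM in WT1 against 0.358 to 1.07 CPM elsewhere. Within the WT group the level differed by 5.92-fold, and KO against WT gave a log2 fold change of -0.16 (SE 0.48). In the reference annotation *Folr1* overlaps *Anapc15* on the opposite strand, and the library kit is not stated to keep strand. *Anapc15* was steady, at 13.3 to 15.5 CPM.

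Ion and water transport genes made up most of the trace members. *Aqp1*, the water channel of the apical membrane, was at 0.288, 0.147, 0.469 and 0.449 CPM in WT1 to WT4 and at 0.371, 0.220, 0.278 and 0.158 CPM in KO1 to KO4, from 9 to 22 counts per mouse. WT and KO overlapped, and the log2 fold change was -0.39 (SE 0.43). *Slc4a5*, a sodium bicarbonate cotransporter, had 20 counts in WT3 and 3 to 10 counts in the other 7 mice. *Kcnj13*, an inwardly rectifying potassium channel, had 33 counts in WT2, 39 in KO3 and 2 to 13 in the other 6 mice. *Kcne2*, an accessory subunit of potassium channels, had 20 counts in KO1 and 3 to 8 in the others. These last 3 genes did not pass the count filter, so they have no test in the main comparison. Fitted without the filter, their log2 fold changes were -0.93, -0.56 and 0.75, with edgeR adjusted p-values of 0.904, 0.967 and 0.904.

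The mice in which *Kcnj13* was high were not those in which *Ttr* was high. *Kcnj13* reached 0.540 CPM in WT2 and 0.517 CPM in KO3 against 0.0315 to 0.277 CPM in the other 6 mice. The gene lies on the opposite strand within *Gigyf2*, which averaged 3496.4 counts per mouse. *Gigyf2* was also highest in WT2 (68.6 CPM) and KO3 (67.1 CPM), with 52.3 to 61.6 CPM in the others, and followed *Kcnj13* with Pearson r = 0.82 over the 8 mice. Other genes followed *Kcnj13* more closely, such as *Prdm15* (0.987) and *Slc22a8* of the wider plexus list (0.86), both named after their values were seen. The spans of *Kcnj13* and *Gigyf2* were compared but not their exons, and whether reads of *Gigyf2* entered the *Kcnj13* counts was not tested.

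*Kcne2* has 2 annotated start sites, and the counts of the 2 transcripts fell in different mice. The transcript *Kcne2-201* held all the counts in WT3, KO1 and KO2 (7, 20 and 8), and *Kcne2-202* held all of them in WT1, WT2, WT4, KO3 and KO4 (6, 3, 4, 7 and 3). WT3, KO1 and KO2 were also the 3 mice with the most *Ttr*, at 29.3, 17.6 and 7.72 CPM, although WT1 and KO3 followed at 7.68 and 7.50 CPM. This match was picked out after the values were seen and was not tested. The 2 transcripts share their last 1556 bases, of 1690 and 1632 in all, so most reads could come from either and Salmon divided them by estimate. All counts of *Slc4a5*, another trace member, likewise sat on 1 transcript in 7 of the 8 mice. The windows of 250 bases before each start are shown to let the starts be compared (RefSeq promoter table, GRCm38.p6, plus strand), at chr16:92292139-92292388 for *Kcne2-201* and chr16:92295366-92295615 for *Kcne2-202*, which starts 3227 bases farther along. Capitals mark the 5 letters TAATC on either strand, the core read by OTX-type homeodomain proteins. 
Kcne2-201: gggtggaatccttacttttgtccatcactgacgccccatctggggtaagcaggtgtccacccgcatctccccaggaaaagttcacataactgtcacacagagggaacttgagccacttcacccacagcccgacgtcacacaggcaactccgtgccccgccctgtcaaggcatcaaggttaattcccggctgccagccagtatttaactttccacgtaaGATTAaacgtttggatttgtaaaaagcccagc
Kcne2-202: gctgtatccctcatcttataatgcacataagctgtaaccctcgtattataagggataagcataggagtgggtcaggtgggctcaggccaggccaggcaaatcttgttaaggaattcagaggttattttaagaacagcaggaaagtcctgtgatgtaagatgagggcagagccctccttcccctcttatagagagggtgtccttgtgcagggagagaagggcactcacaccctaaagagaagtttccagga
The *Kcne2-201* window held 1 such match, on the reverse strand, and the *Kcne2-202* window held none. Of all 32851 windows of this length in the table, 19.8% held it, as did 3 of the 10 windows listed for 6 of the members. The longer form TAATCC, which contains the core, was in 6.25% of all windows and in 1 of those 10, at a start of *Otx2*.

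*Clic6*, an intracellular chloride channel protein, *Otx2*, the transcription factor that specifies and maintains plexus epithelium, and *Sostdc1*, a secreted antagonist of BMP and Wnt ligands, were the members that went together in KO2. *Clic6* was at 25.9, 7.25, 22.8 and 29.3 CPM in WT1 to WT4 and at 19.6, 42.4, 18.7 and 28.7 CPM in KO1 to KO4. It was lowest in WT2 and highest in KO2, and the other 6 mice lay within 18.7 to 29.3 CPM. *Otx2* was at 0.684, 0.687, 1.62 and 1.39 CPM in WT1 to WT4 and at 0.801, 4.01, 0.756 and 0.962 CPM in KO1 to KO4. *Sostdc1* was at 0.971, 0.589, 0.575 and 1.33 CPM in WT1 to WT4 and at 0.781, 2.57, 0.703 and 1.14 CPM in KO1 to KO4. For both genes KO2 was above all other mice, while the other KO mice lay within the range of the WT mice. KO2 also had the highest summed TPM of 11 ependymal cell genes (127, against 51.6 to 114 in the other mice), being the highest mouse for 10 of them, and the part of ependymal tissue in its *Otx2* level was not tested.

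**Figure D2:**
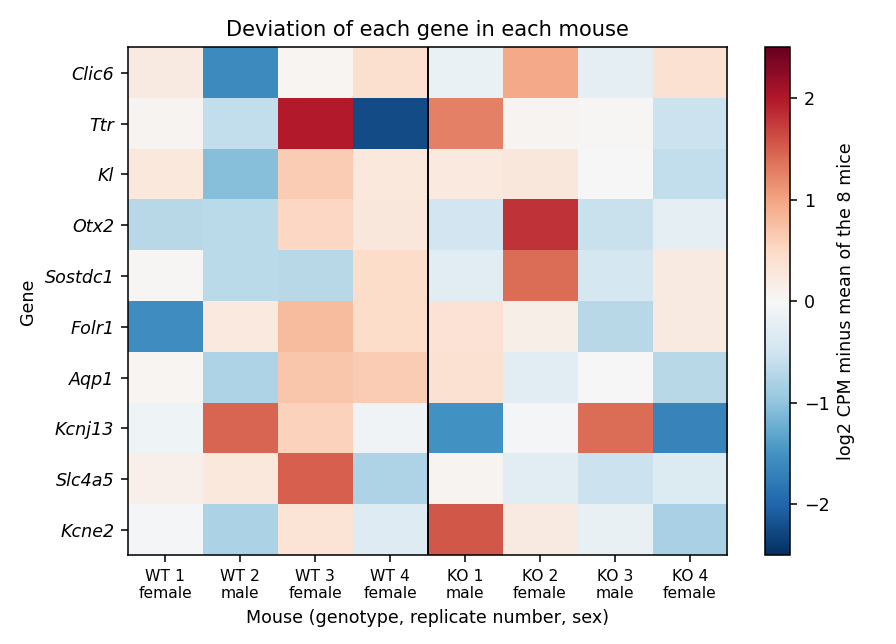
Deviation of each of the 10 genes in each mouse from its own mean over the 8 mice (log2 CPM, red above and blue below), with WT on the left and KO on the right of the line. Strong red cells lie in WT3 for *Ttr* (1.99) and *Slc4a5* and in KO2 for *Otx2* and *Sostdc1*. Others lie in KO1 for *Kcne2* (1.55) and *Ttr* (1.25) and in WT2 and KO3 for *Kcnj13* (1.45 and 1.39). WT3 is above the mean for every gene but *Sostdc1* (-0.70), though *Clic6* is only at 0.05, so no mouse is high for all genes.

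KO against WT, no member passed the test. Of the 7 members that passed the count filter 3 were higher and 4 lower in KO by fitted value, 0 had an edgeR adjusted p under 0.1, 0 had an unadjusted p under 0.05 and 0 had groups that did not overlap. Over all 17669 genes tested those shares were 0.00566%, 1.88% and 1.53%. The median log2 fold change of the 7 genes was -0.13, where that of all genes tested was -0.001. *Clic6* had 0.36 (SE 0.42), *Otx2* 0.58 (SE 0.60) and *Sostdc1* 0.58 (SE 0.47), and all 7 adjusted p-values were 1.0. DESeq2 without covariates also called 0 of the 10 members, with 0 at an unadjusted p under 0.05, and called 0.0619% of genes. In the edgeR fit with genotype alone 1 gene was called, the predicted gene *Gm43079*, which was lower in KO and is named after its values were seen, and in DESeq2 12 genes were, *Lrig1* among them. The SD within genotypes on the log2 scale had a median of 0.76 over the 7 members and of 0.21 over all genes tested.

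Single mice carried the fitted differences of these genes. Without KO2 the log2 fold change of *Otx2* went from 0.58 to -0.38 and that of *Sostdc1* to 0.01. Without KO2 that of *Clic6* fell to 0.07, and without WT2 to 0.07 as well. Without WT3 the median of the 7 members went from -0.13 to 0.40.

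With sex in the model the value for *Clic6* went up. The log2 fold change of *Clic6* was 0.77 (SE 0.21) in edgeR with sex as a covariate, with an unadjusted p of 0.00675 and an adjusted p of 0.555. DESeq2 with the same terms gave 0.77 (SE 0.21) with an adjusted p of 0.0357, a call that 1.13% of genes shared and that no other member had. With the mean of 6 cortical neuron genes in place of sex, the edgeR value went down to 0.12 (SE 0.30), with no call. That step was chosen after seeing the data. Among females, *Clic6* was at 25.9, 22.8 and 29.3 CPM in WT and 42.4 and 28.7 CPM in KO, which overlap. Among males, the 1 WT mouse was at 7.25 CPM and the KO mice at 19.6 and 18.7 CPM, so within males the comparison rests on WT2 alone.

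**Figure D3:**
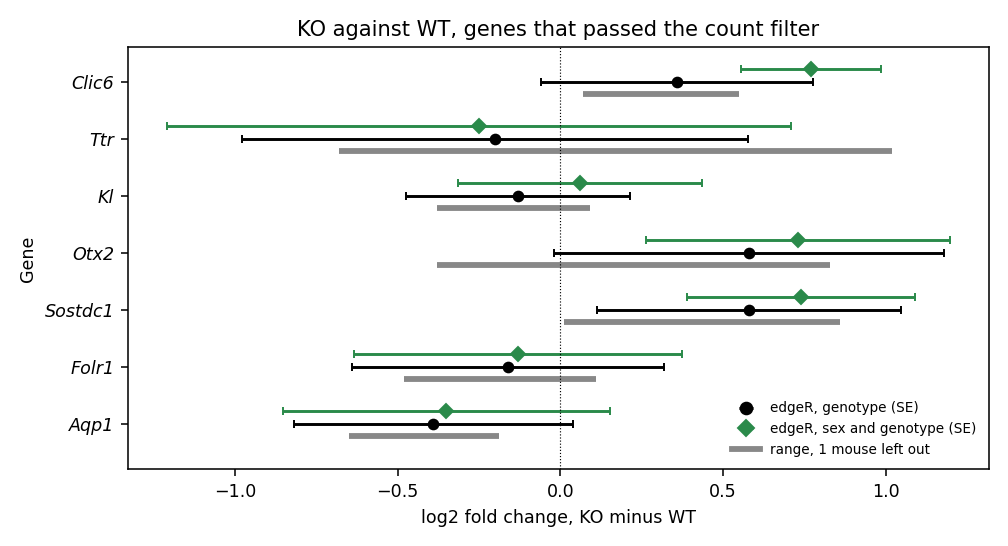
log2 fold change (KO minus WT) of the 7 genes that passed the count filter, from edgeR with genotype alone (black, with SE) and with sex added (green, with SE), and the range of values when each mouse in turn is left out (grey). The grey range of *Ttr* runs from -0.68 to 1.02, and *Clic6* moves from 0.36 to 0.77 when sex is added.

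Female and male mice differed in *Clic6*. With genotype in the model, 1 of the 7 members tested passed at an adjusted p under 0.1, against 3.72% of all genes (0.849% higher in females), and 3 had an unadjusted p under 0.05, against 15.9%. *Clic6* averaged 29.8 ± 7.48 CPM in females (SD, n = 5) and 15.2 ± 6.89 CPM in males (SD, n = 3). Its log2 fold change, female minus male, was 1.27 (SE 0.23, edgeR adjusted p = 0.0428), every female lay above every male, as for 2.8% of all genes tested, and the exact permutation test gave p = 0.0179, the smallest that 5 against 3 allows. *Otx2* (1.32, SE 0.50, edgeR adjusted p = 0.253) and *Sostdc1* (1.06, SE 0.38, edgeR adjusted p = 0.219) had fitted values above 0 without passing. DESeq2 called *Clic6* and *Otx2*, against 7.69% of genes. *Ttr* had -0.10 (SE 0.99).

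The sexes also differed in cortical marker genes. The summed TPM of 6 cortical excitatory neuron markers was 191, 941 and 413 in the males KO1, WT2 and KO3 and 6.21 to 153 in the females, and all 6 genes were called lower in females. WT2, lowest for *Clic6*, *Kl* and *Aqp1*, was highest for these cortical genes and lowest for the 8 striatal neuron genes, at 2400 TPM against 3540 to 6060 TPM in the other mice. Sex and cortical content cannot be told apart here. When the mean of the 6 cortical genes was added to the fit, a step chosen after seeing the data, *Clic6* had 2.0 (SE 0.55) with an adjusted p of 1.0. The call for *Clic6* was also lost without WT2 (log2 fold change 0.90, adjusted p = 0.358), without KO3 (1.34, adjusted p = 0.154) and without KO2 (1.23, adjusted p = 0.106). Calls over all genes fell likewise, from 657 to 0 with the cortical genes, 10 without WT2, 59 without KO3 and 387 without KO2.

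**Figure D4:**
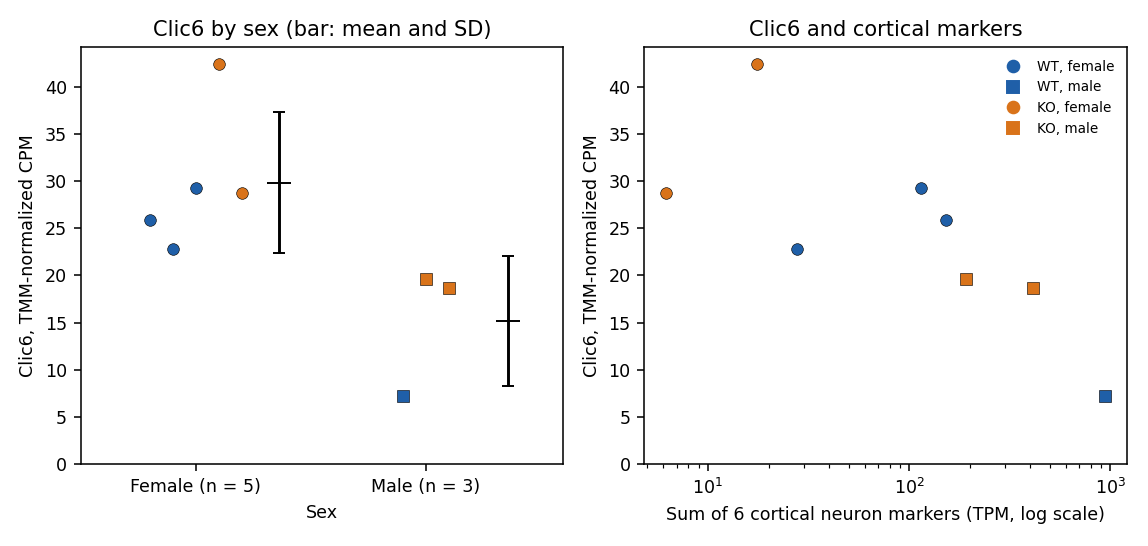
*Clic6* level (TMM-normalized CPM) by sex with mean and SD on the left, and against the summed TPM of 6 cortical neuron markers (log axis) on the right, with 1 point for each mouse. Females sit between 22.8 and 42.4 CPM and males between 7.25 and 19.6 CPM, and the males are also the 3 mice with the most cortical transcript.

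The 10 genes did not move as a block across the mice. Over the 45 pairs, Pearson r of log2 CPM in the 8 mice had a median of 0.14 and ran from -0.54 (*Sostdc1* and *Slc4a5*) to 0.86 (*Kl* and *Aqp1*). 28 pairs were above 0 and 17 below. All pairs of the 17669 genes tested had a median of 0.0. 4 member pairs, or 8.89%, exceeded 0.7, where 5.23% of all pairs did. Those were *Kl* with *Aqp1* (0.86), *Ttr* with *Slc4a5* (0.78), *Clic6* with *Sostdc1* (0.76) and *Otx2* with *Sostdc1* (0.73). *Ttr* and *Clic6*, the 2 members with the most TPM, had r = -0.03. These values are descriptions over 8 mice that differed in depth and in cortical content (6.21 to 941 TPM summed over 6 markers). All genes of a mouse share its depth and dissection, and trace genes with a few counts bring counting noise into their pairs.

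Each member was also set against the mean of the other 9. *Kl* was closest, with Pearson r = 0.75 (exact permutation p = 0.036, Benjamini-Hochberg p = 0.36 over 10 genes) and Spearman rho = 0.81 (exact permutation p = 0.0218, Benjamini-Hochberg p = 0.109). After the 2 mice farthest from the median, KO2 and WT3, were left out, r for *Kl* was 0.75. *Kcne2* had r = 0.48 and rho = 0.81, and *Aqp1* r = 0.51 and rho = 0.64, and without KO2 and WT3 their r was 0.77 and 0.78. For *Ttr* (0.37), *Otx2* (0.54), *Clic6* (0.27), *Slc4a5* (0.38) and *Folr1* (0.16) r was -0.15, -0.05, -0.01, -0.32 and -0.37 without KO2 and WT3. Leaving out the mice farthest on that same mean narrows its range and leaves 6 mice, so these lower values decide nothing. *Kcnj13* had -0.28 and *Sostdc1* -0.02, and -0.69 and -0.12 without those mice. None of the 10 genes passed the adjustment by either measure.

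**Figure D5:**
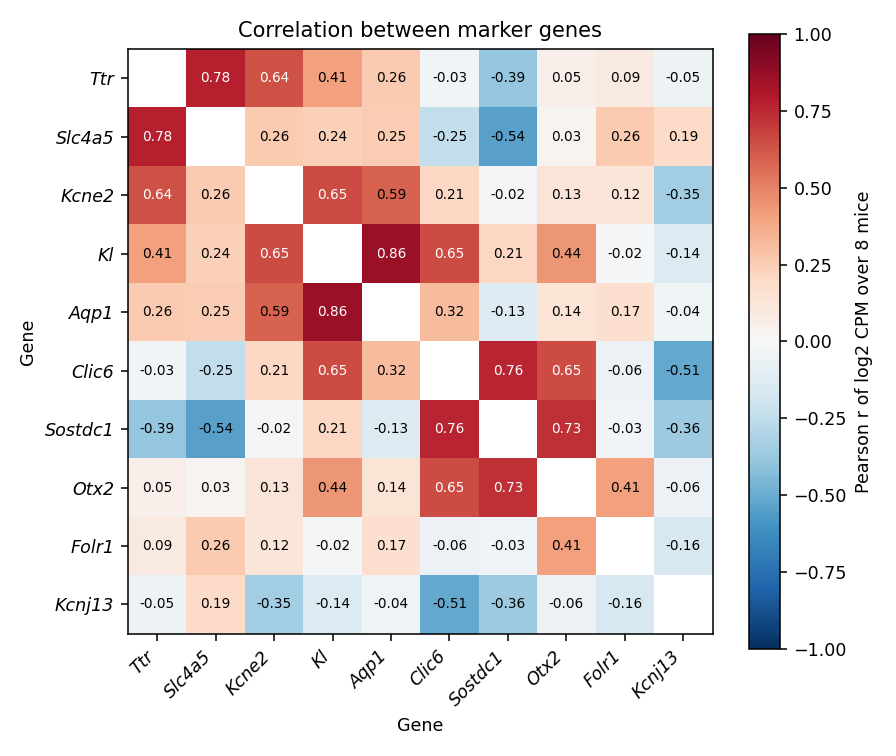
Pearson r of log2 CPM over 8 mice for each pair of the 10 genes (red above 0, blue below 0), with the genes ordered to place the closest pairs side by side. The values run from -0.54 to 0.86, and *Kcnj13* is at or below 0.19 with every other gene.

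The highest mouse also differed by gene. WT3 was highest for 5 of the 10 genes (*Ttr*, *Kl*, *Folr1*, *Slc4a5* and *Aqp1*), KO2 for 3 (*Clic6*, *Otx2* and *Sostdc1*), KO1 for *Kcne2* and WT2 for *Kcnj13*. In log2 CPM, WT3 was above the mean of the 8 mice for every member but *Sostdc1*, for which it was the lowest mouse, with 27 counts. The genes outside the plexus lists nearest to the mean of the 10 members, by Pearson r over the 8 mice, were *Gm46447* (0.967), *Eef2kmt* (0.963), *Pdia3* (0.963), *Pard6g* (0.960), *5730480H06Rik* (0.952), *9330162012Rik* (0.950), *A330048O09Rik* (0.943), *Gja5* (0.941), *Lamp1* (0.938) and *D130020L05Rik* (0.936). None of those 10 genes was in the lists of stromal, ependymal or vessel markers used here. Those lists are short and do not hold every marker of these cells, so the absence decides nothing.

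The wider set of plexus genes gave genotype calls only in DESeq2 with sex. Of 38 other genes used as choroid plexus markers, 34 were tested KO against WT and 0 were called by edgeR, with 17 higher, 17 lower, a median log2 fold change of 0.01 and 1 gene, *Msx1*, at an unadjusted p under 0.05 (-0.41, SE 0.17). Over all genes tested, edgeR called 0.00566%, and 1.88% had an unadjusted p under 0.05. DESeq2 without covariates called 0 as well. DESeq2 with sex called *Vat1l* (0.75, adjusted p = 0.0602) and *Enpp2* (-0.31, adjusted p = 0.0632), where 1.13% of genes were called. The genes with the most TPM in that list were *Enpp2*, which makes lysophosphatidic acid (112 TPM on average), *Vat1l* (86.7), *Slc4a10*, a bicarbonate transporter (47.5), the serotonin receptor *Htr2c* (31.7), *Igfbp2* (20.3), *Igf2* (17.7), *Cab39l* (14.2) and *Slc4a2* (12.9). All 8 exceeded *Clic6*, and 7 of them *Ttr*. Neurons or glia also express several of these, *Enpp2* and *Htr2c* among them. *Prlr*, the prolactin receptor, was at 0.458 to 7.46 CPM in 7 mice and at 28.8 CPM in KO2 (log2 fold change 1.81, SE 0.98). *Prlr* and *Enpp2* entered the list because the study's own comparison of these same mice lists them, so they are not independent evidence.

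*Clic6* had higher correlations with some genes of that wider list than with any member, of which *Sostdc1* (0.76) was closest. Its Pearson r over the 8 mice was 0.972 with *Vat1l*, 0.963 with *Trpm3*, a cation channel, 0.909 with *Ace*, 0.876 with *Prlr* and 0.869 with *Htr2c*, genes picked here after their values were seen. The closest of all genes tested were in none of the lists, with *N4bp2* at 0.994, *Ptpro* at 0.991 and *Galr1* at 0.990. Whether the *Clic6* RNA came from plexus epithelium or from other cells was not tested. *Vat1l* ran from 61.3 CPM in WT2 to 286 CPM in KO2, the same lowest and highest mice as *Clic6*. In females against males, 4 of the 34 genes were called, where 3.72% of all genes were, and here too sex and cortical content cannot be told apart. *Ace* (log2 fold change 0.56, edgeR adjusted p = 0.0428) and *Vat1l* (0.98, adjusted p = 0.0959) were higher in females, and *Enpp2* (-0.32, adjusted p = 0.0941) and *Slc13a4* (-1.91, adjusted p = 0.0887) were lower. *Slc13a4*, a sulfate transporter, was at 6.42 CPM in WT2 and 6.24 CPM in KO3 and at 0.820 to 2.28 CPM elsewhere, the 2 mice in which *Kcnj13* was high. *Kcnj13* and *Slc13a4* had r = 0.815. The stromal fibroblast genes *Ogn* (4.71 and 5.95 CPM, against 1.13 to 2.24 elsewhere) and *Slc6a13* (4.55 and 4.34 CPM, against 1.48 to 3.22 elsewhere) were highest in the same mice, with r = 0.725 and 0.742 to *Kcnj13*, and their part in its level was not tested.

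Markers of other cells in and around the plexus gave no genotype call in edgeR. Of 64 genes tested in 11 lists of other cell types, 0 were called KO against WT and 0 had an unadjusted p under 0.05. Over all genes tested those shares were 0.00566% and 1.88%, so these counts do not set the lists apart from other genes. The summed TPM of 8 stromal fibroblast genes ran from 8.36 to 19.9 in WT and from 7.85 to 18.4 in KO, with *Dpt* at 0 to 12 counts. *Plvap*, of the fenestrated vessels that plexus stroma has and most brain tissue lacks, was at 3.42 to 6.54 TPM in WT and 2.34 to 7.72 TPM in KO. The 6 border macrophage genes summed to 1.63 to 3.67 TPM, with *Ms4a7* at 2 to 8 counts. Over all mice the sums were 128 to 159 TPM for endothelium, 198 to 277 TPM for microglia, 362 to 587 TPM for astrocytes, 261 to 386 TPM for neuroblasts and 3580 to 4860 TPM for oligodendrocytes.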

How the data were processed

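Per the labels and the study's methods, polyA libraries (NEBNext Ultra II DNA kit) were sequenced on an Illumina NovaSeq lane, reads were written with bcl2fastq 2.20, and the authors ran Salmon against Gencode M29. Deposited values are estimated counts per gene (not whole, unnormalized) and, per transcript, estimated counts and TPM. No count column lacked a sample (0). Counts were rounded, and gene names and overlaps came from Gencode M21 (GRCm38), which named 94.8% of gene IDs. TPM was summed over transcripts of a gene, and 97.4% of transcripts matched.

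Genes were tested with edgeR 4.0.16 in R 4.3.3 (filterByExpr, TMM, quasi-likelihood test, Benjamini-Hochberg over 17669 genes, threshold 0.1 as in the study). The SE is the log2 fold change divided by the square root of F. log2 CPM used a prior count of 2. DESeq2 1.42.0, other filters, covariates and leaving out each mouse were alternatives. On simulated data for KO against WT with 17669 genes, 178 of 200 genes changed by 2 on the log2 scale were recovered, with 14 other calls. Those 200 were drawn at random from all genes tested, whose median SD within genotypes was 0.21. The tested members had 0.76, so this recovery need not hold for them. Exact permutation tests were 2-sided. Each sample is 1 mouse, so p-values set group differences against the spread between mice. That spread includes differences in dissection and library preparation, which cannot be separated here. Poisson intervals (95%) cover counting error only. The members, lists and named genes were chosen with earlier results of these data known: members, called genes, up to 8 plexus genes of highest TPM, *Prlr*, *Enpp2*, *Igf2*, and the 10 genes nearest to the members' mean. Replicate numbers did not pair the mice.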

Additional observations from a re-analysis of the deposited data

Results flagged for a closer look

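Within genotypes, each member was checked for a mouse far from the other 3 of its group. Of 20 groups 1 stood out, where chance gives about 1 in 20. *Otx2* in KO2 was at 4.01 CPM, and its gap to the next KO mouse was 0.94 of the range of the 4 KO mice, above Dixon's 95% critical value of 0.829. *Sostdc1* (2.57 CPM), *Clic6* (42.4 CPM) and *Prlr* (28.8 CPM) were also highest in KO2.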

How the results depend on the processing

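KO against WT, edgeR called 0 members under every alternative, and DESeq2 with sex as a covariate called 1 (*Clic6*, 0.77). Of the other plexus genes, DESeq2 with sex called 2 (*Vat1l*, 0.75, and *Enpp2*, -0.31) and all other settings called 0. Over all genes the count of 1 became 12 with DESeq2, 201 with DESeq2 and sex, 2 without the filter, 0 with at least 10 counts in every mouse, 2 with sex as a covariate, 0 with the replicate block, 0 with the plexus score (the mean of 16 other plexus genes) and 2 with the cortical score, which was added after seeing the data, and ran from 0 to 3 when each mouse was left out. The cause was not tested. Fitted values changed sign, with no call, for *Ttr* (0.47 with the replicate block, 0.00 with the plexus score, -0.68 to 1.02 without 1 mouse) and *Kl* (0.06 with sex in edgeR and in DESeq2, -0.38 to 0.09 without 1 mouse), and without 1 mouse for *Folr1* (-0.48 to 0.11) and *Otx2* (-0.38 to 0.83). The median of the members ran from -0.23 to 0.40 without 1 mouse, and the median pair r from 0.03 to 0.21.

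Female against male, 2 members were called by DESeq2 and 2 without the filter (*Clic6* and *Otx2*, adjusted p = 0.0922 and 0.0994 for *Otx2*), 0 with the cortical score, and 0 to 1 without 1 mouse. Over all genes the count of 657 became 1537 with DESeq2, 1360 without the filter and 0 with the cortical score. It ran from 10 to 1462 without 1 mouse. With the cortical score *Folr1* (-2.76) and *Aqp1* (-0.25) changed sign. Without 1 mouse *Ttr* ran from -0.96 to 0.55, *Kl* from -0.21 to 0.84, *Folr1* from -0.12 to 0.37 and *Aqp1* from -0.76 to 0.45. The replicate numbers of the labels did not pair the mice: the correlations of same-numbered deviations were 0.08, -0.22, -0.22 and 0.27, and 1 of the 4 WT mice correlated best with its own number. Depth limits *Kcne2*, *Slc4a5* and *Kcnj13*, at 2 to 39 counts per mouse.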
